A study of Caenorhabditis elegans with 2 samples.

Results

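The regions at piRNA genes were 492 of the 26141 nuclear regions in a list made from both replicates of a ChIP-seq experiment on the forkhead transcription factor FKH-6 in Caenorhabditis elegans. They were chosen by position alone. The summit, the point of highest signal in a region, had to lie within 500 bp of the 5' end of an annotated piRNA gene and more than 500 bp from the 5' end of every tRNA, snoRNA, snRNA and ncRNA gene. A further 69 regions met the first condition and not the second, and were left out. Signal, q-value and reproducibility did not enter the rule. The summit positions come from the experiment, and the regions were chosen with earlier results of these data known.

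The worms were strain OP78, genotype unc-119(ed3) III; wgIs78. Its transgene makes FKH-6 with a GFP-FLAG tag at the C-terminus, and an anti-GFP antibody pulled down the sonicated chromatin. Eggs were bleached to synchronize the worms, and whole hermaphrodites at the late embryo stage were taken 5.5 hours later. The 2 biological replicates form 1 group, and control libraries were not analysed here. The material is whole embryos, so signal from any one cell type is mixed with all others. The tagged protein comes from an added transgene. Region lists hold no expression values, so the stage and the cells could not be checked against marker genes.

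piRNAs of C. elegans, also called 21U-RNAs, are short RNAs that begin with uridine and are bound by the Piwi protein PRG-1 in the germline, where they direct silencing of foreign and repeated sequences. Most are made from very small separate genes in large numbers, each with its own promoter. Many of these promoters carry a core motif upstream of the RNA, CTGTTTCA, and forkhead proteins have been reported to recognise it. FKH-6 itself is known for its role in the somatic gonad. Late embryos hold only a pair of germline precursor cells, and piRNAs are made chiefly in the later germline.

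The annotation (Ensembl release 115, WBcel235, which is ce11) holds 15363 piRNA genes on the nuclear chromosomes, all of 21 bases. Of these, 14714 are on chromosome IV. Read from the RefSeq genome of the same build, 96.2% of the annotated genes begin with T, the DNA letter for uridine. The core motif lies in the 60 bases upstream of 33.5% of them, and its first base is at a median of -46 relative to the 5' end. To define the clusters of chromosome IV without using the experiment, runs of 100 kb bins with 10 or more piRNA genes were taken, joined over gaps of at most 2 bins, and the 2 fullest runs were kept. The left cluster, IV:4800001-7400000, holds 2851 genes in 2.6 Mb. The right cluster, IV:13500001-17493829, holds 11563 genes in 3.99 Mb.

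Of all the regions at piRNA genes, 4 were in the authors' reproducible list, which keeps the pooled regions that pass a limit on the irreproducible discovery rate. The lines below show the sequence at their 4 summits, 50 bases to each side, read from the plus strand of RefSeq's WBcel235. They are named by the nearest piRNA gene, and they are shown because these were the regions with the firmest support. Capitals mark any match, on either strand, to CTGTTTCA, to the forkhead motif GTAAACA or to the repeat GAGAGA.
21ur-10291, IV:14838348-14838448: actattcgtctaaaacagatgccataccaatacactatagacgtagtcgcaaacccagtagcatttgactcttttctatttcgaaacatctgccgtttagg
21ur-8889, IV:15570892-15570992: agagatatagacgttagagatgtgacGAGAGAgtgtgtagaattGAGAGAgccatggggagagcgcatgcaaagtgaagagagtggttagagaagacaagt
21ur-14295, IV:10085866-10085966: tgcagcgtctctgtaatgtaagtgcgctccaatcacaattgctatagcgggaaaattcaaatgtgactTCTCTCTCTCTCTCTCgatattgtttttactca
21ur-7216, IV:5600397-5600497: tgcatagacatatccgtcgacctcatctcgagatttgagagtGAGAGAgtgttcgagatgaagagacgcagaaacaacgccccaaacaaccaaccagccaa
The capitals in 3 of these windows are matches to GAGAGA or its reverse complement, and the window at 21ur-10291 has none. Neither CTGTTTCA nor GTAAACA is in any of the 4 windows.

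The piRNA genes nearest to those summits are shown next for comparison, each with the 60 bases upstream of it, on the gene's own strand. Capitals at the end mark the 21 bases of the piRNA gene, and capitals before them mark CTGTTTCA.
21ur-10291, IV:14837999-14838079, minus strand: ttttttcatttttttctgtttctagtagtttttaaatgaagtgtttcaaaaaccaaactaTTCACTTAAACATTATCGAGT
21ur-8889, IV:15571175-15571255, plus strand: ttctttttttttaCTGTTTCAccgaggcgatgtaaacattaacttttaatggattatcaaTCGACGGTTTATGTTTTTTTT
21ur-14295, IV:10085463-10085543, minus strand: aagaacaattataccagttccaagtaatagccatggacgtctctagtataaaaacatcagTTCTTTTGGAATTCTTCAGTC
21ur-7216, IV:5600720-5600800, plus strand: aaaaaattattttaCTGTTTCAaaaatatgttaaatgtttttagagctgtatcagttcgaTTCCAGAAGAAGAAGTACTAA
The motif starts at -47 upstream of 21ur-8889 and at -46 upstream of 21ur-7216. The exact letters are not upstream of 21ur-10291 or 21ur-14295. All 4 summits lay on the upstream side of their piRNA gene, and all were farther than 250 bp from its 5' end.

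The strongest of the 4 regions, IV:14838168-14838627, had its summit 379 bp upstream of 21ur-10291 (WBGene00166732) in the right cluster, in an intron of Y57G11C.22. Its signal was 116.5 in the pooled list, where it ranked 377, and 40.5 in replicate 1 (rank 955) and 79.5 in replicate 2 (rank 245). The signal is the authors' own value for a region. Its scale is not stated, so it is used here for order inside a list and not between lists. The region IV:15570712-15571171, 293 bp upstream of 21ur-8889 (WBGene00170235), also in the right cluster and intergenic, had a signal of 107.8 (rank 459), with 45.1 in replicate 1 (rank 640) and 61.04 in replicate 2 (rank 499). The nearest protein-coding start was 6515 bp away. Its ranks in the 2 replicates were closer together than those of the first region.

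Outside the clusters, the region IV:10085686-10086145, 433 bp upstream of 21ur-14295 (WBGene00167449), had a signal of 106.2 (rank 480), with 51.6 in replicate 1 (rank 426) and 54.95 in replicate 2 (rank 660). This summit was nearer to a protein-coding gene than to the piRNA, at 221 bp upstream of ndc-80, which encodes a kinetochore protein. In the left cluster, the region IV:5600217-5600676, 333 bp upstream of 21ur-7216 (WBGene00166376), had a signal of 89.4 (rank 762), just above the lowest signal of the reproducible list, 89.1. Replicate 1 gave it 42.8 (rank 785) and replicate 2 gave it 40.3 (rank 1750). It lay in an intron of fkh-7, another forkhead gene, with 6 piRNA 5' ends within 500 bp. Allowing a wider window, all 4 regions had GAGAGA and none had CTGTTTCA or GTAAACA within 150 bp of the summit. Over all nuclear regions the shares were 25.3% for GAGAGA, 1.83% for CTGTTTCA and 3.24% for GTAAACA. The shares over the reproducible list were not counted, so GAGAGA cannot be read as particular to these 4.

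The reproducible list held few of the regions at piRNA genes. The 4 regions were 0.813% of the 492 (95% Wilson interval 0.317 to 2.07). The share over all nuclear regions was 2.85%. Over the nuclear regions away from tRNA, snoRNA, snRNA and ncRNA genes, which is the closer comparison, it was 1.91%. The interval includes this closer share. Within the clusters, 3 of 335 regions at piRNA genes were in the list, or 0.896% (0.305 to 2.60), beside 12 of 549 other regions away from small RNA genes, or 2.19% (1.25 to 3.78). These 2 intervals overlap. The excluded set of 69 regions, which had both a piRNA gene and another small RNA gene nearby, held 8 reproducible regions, or 11.6% (5.99 to 21.2). Regions near other small RNA genes made up much of the list in any case. It held 746 nuclear regions, of which 434 were away from such genes. The intervals given here and below cover counting error only. No p-value is given, since neighbouring regions are not independent and the replicates form a single group.

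The signals of the regions at piRNA genes were low in the list. The lowest was 24.99, the median 33.2 and the highest 116.5, against 24.97, 34.97 and 873.9 over all nuclear regions. Their median signal stood at percentile 43.3 of the nuclear regions, where other regions away from small RNA genes stood at 48.1. Inside the clusters the medians were at percentile 40.5 for the 335 regions at piRNA genes and 49.1 for the 549 other regions. Outside them, the 46 regions at piRNA genes on the rest of chromosome IV had a median at percentile 54.2 and the 111 on other chromosomes at 51.8. The medians outside the clusters were thus above the middle of the list and those inside below it. Of the 492, 24 were in the top 10% of nuclear regions by signal, or 4.88% (95% Wilson interval 3.30 to 7.16). A −log10 q-value of 2 or more was reached by 7, or 1.42% (0.691 to 2.91). The share was 4.12% of all nuclear regions and 2.98% of other regions away from small RNA genes. All 7 of the regions at piRNA genes that reached it were on chromosome IV.

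Replicate support in the full replicate lists was close to that of the list as a whole, and support among their strongest regions was lower. A region with its summit within 100 bp was found in replicate 1 for 240 of the 492 (48.8%, 95% Wilson interval 44.4 to 53.2) and in replicate 2 for 286 (58.1%, 53.7 to 62.4), where the shares over all nuclear regions were 48.4% and 61.7%. Both replicates held 118, or 23.98% (20.4 to 27.9), beside 26.3% of all nuclear regions, and neither held 84, or 17.1% (14.01 to 20.7), beside 16.1%. The reproducible list holds 767 regions. Of the same number of regions with the highest signal in a replicate, 3 matched the 492 in replicate 1 and 5 in replicate 2, and 2 were in both sets. Those are 0.610% (0.208 to 1.78), 1.02% (0.435 to 2.36) and 0.407% (0.112 to 1.47) of the 492. The shares were 2.78%, 2.82% and 1.62% of all nuclear regions, each above the matching interval. Among other regions away from small RNA genes they were 1.92%, 1.94% and 0.979%. The intervals for replicate 2 and for both sets include these last shares. The 2 in both sets were the regions at 21ur-8889 and 21ur-14295.

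For the regions at piRNA genes found in both replicates, the order of the 2 signals was compared in each place. Across the 118 regions Spearman's rho was 0.245, and across the 6864 such regions of the whole nuclear list it was 0.454. In the right cluster it was 0.119 across 41 regions and in the left cluster 0.302 across 32, where the other cluster regions away from small RNA genes gave 0.383 across 142. On the rest of chromosome IV it was 0.552 across 14 regions and on other chromosomes 0.169 across 31. All other nuclear regions away from small RNA genes gave 0.395 across 5454. These values describe regions of the same libraries, which are not independent, and all points share the depth of their library. Several of the sets are small, no intervals were computed, and differences in rho between places were not tested. Pooled signals over all nuclear regions also reached higher, to 873.9, than those at piRNA genes, to 116.5.

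**Figure D1:**
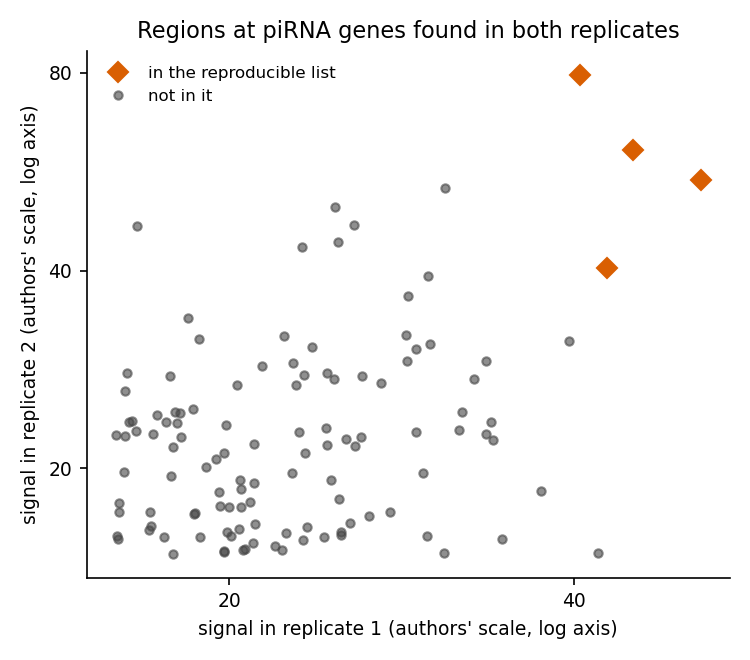
Signal in replicate 1 (x axis) and in replicate 2 (y axis) of the 118 regions at piRNA genes found in both replicates, on the authors' scale and log axes; each point is a region. The 4 diamonds, regions of the reproducible list, had signals above 40 in both replicates, and Spearman's rho over all 118 points was 0.245.

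Most regions at piRNA genes were in the chromosome IV clusters. The position rule favours this place, since the clusters hold 14414 of the 15363 nuclear piRNA genes. The clusters held 335 of the 492, or 68.1% (95% Wilson interval 63.8 to 72.1), 139 in the left and 196 in the right. Another 46 were on the rest of chromosome IV, and chromosomes I, II, III, V and X held 25, 24, 22, 19 and 21. Chromosome IV as a whole held 77.4% of the regions and 95.8% of the piRNA genes. A region lay within 500 bp of 10.4% of the piRNA genes in the left cluster and 4.98% of those in the right cluster, against 12.7% on the rest of IV and 15.4% on other chromosomes. In all, 1010 piRNA genes had such a region nearby, and 11 had one from the reproducible list. Since piRNA genes lie close together, 1 region can count for several genes. A single piRNA 5' end lay within 500 bp of 256 of the 492 regions, and the highest number was 10.

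FKH-6-GFP regions were sparser in the clusters than elsewhere. The pooled list had 183 regions per Mb in the left cluster and 139 per Mb in the right cluster, against 265 per Mb on the rest of chromosome IV and 268 on other chromosomes. Within the clusters, summits were rarer still near the piRNA genes. Of the bases more than 500 bp from other small RNA genes, 60.2% lay within 500 bp of a piRNA 5' end, and they held 37.9% of the summits (95% Wilson interval 34.8 to 41.1). That is 88.8 summits per Mb near piRNA 5' ends and 219.8 per Mb away from them, a ratio of 0.404 (0.353 to 0.463). The right cluster gave a ratio of 0.294 (0.246 to 0.352), with 73.7 summits per Mb near and 250 away. The left cluster gave 0.655 (0.532 to 0.807), with 125 near and 191 away. These 2 intervals do not overlap, and the difference between the clusters was not tested.

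Outside the clusters the ratio was nearer to 1, at 0.721 (0.539 to 0.964) on the rest of IV and 0.743 (0.617 to 0.896) on other chromosomes. The interval of the left cluster overlaps both of these, and that of the right cluster lies below them. Each replicate's own list showed the lower density in both clusters. In replicate 1 the ratio was 0.387 (0.319 to 0.469) in the right cluster and 0.680 (0.543 to 0.852) in the left cluster. In replicate 2 it was 0.340 (0.285 to 0.406) in the right cluster and 0.635 (0.516 to 0.780) in the left cluster. On the rest of IV the ratios of 0.826 in replicate 1 (0.602 to 1.13) and 0.891 in replicate 2 (0.684 to 1.16) had intervals that include 1. On other chromosomes the ratios were 0.838 in replicate 1 (0.684 to 1.03) and 0.835 in replicate 2 (0.701 to 0.995).

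**Figure D2:**
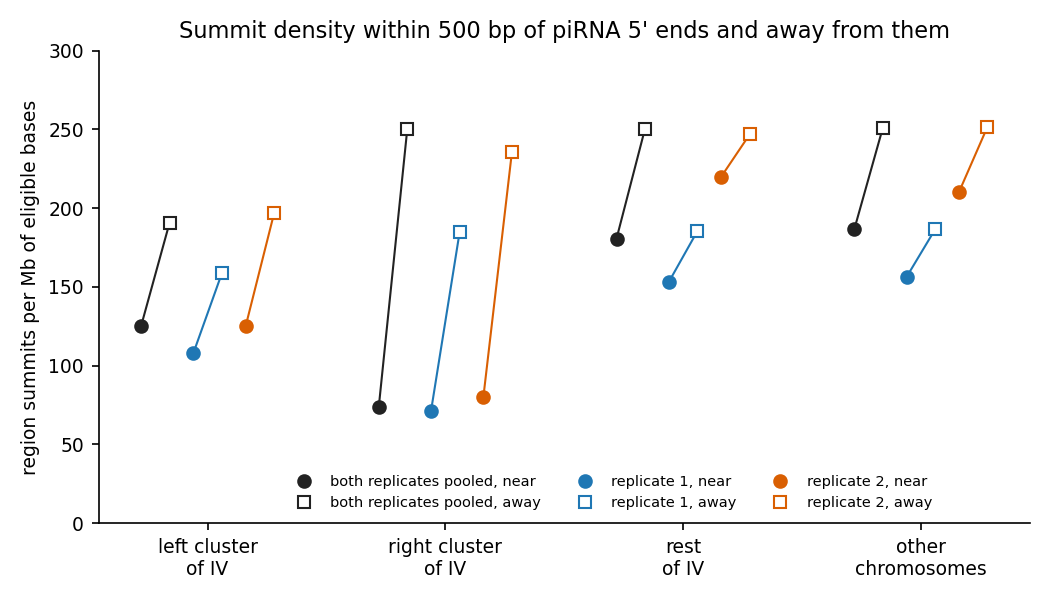
Summits per Mb of eligible bases (y axis) within 500 bp of a piRNA 5' end (filled circles) and away from one (open squares), in the 2 clusters, the rest of chromosome IV and the other chromosomes, for the pooled list and each replicate. The filled circle is below its square in every pair, and the gap is widest in the right cluster, at 73.7 against 250 per Mb in the pooled list.

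Density was lowest next to the piRNA 5' ends. In the clusters the pooled list had 44.5 summits per Mb at 0 to 100 bp from a piRNA 5' end, 92.7 at 101 to 200 bp and 153 at 201 to 300 bp. Between 301 and 2000 bp it ran from 162 to 187 per Mb, and beyond 2000 bp it was 255. Replicate 1 had 53.3 summits per Mb at 0 to 100 bp and 199.9 beyond 2000 bp, and replicate 2 had 54.4 and 243. The class nearest to the 5' end was the lowest in all 3 lists.

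**Figure D3:**
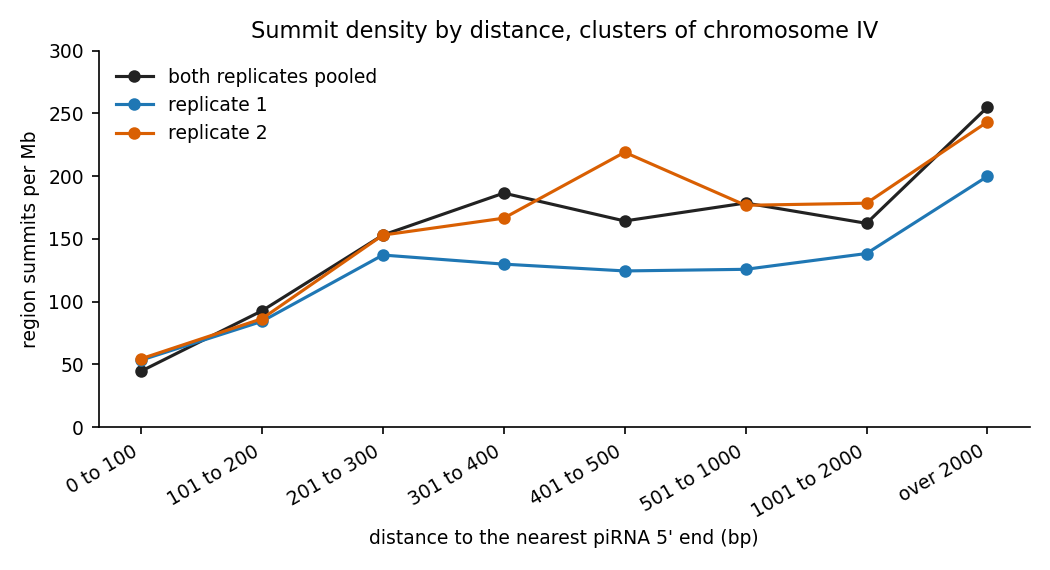
Summits per Mb of the clusters (y axis) in classes of distance to the nearest piRNA 5' end in bp (x axis), for the pooled list and each replicate. All 3 lines are lowest at 0 to 100 bp, from 44.5 to 54.4 per Mb, and highest beyond 2000 bp.

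Density was also lower where piRNA genes were more crowded. Bases of the clusters with 0 piRNA 5' ends within 500 bp had 219.8 summits per Mb in the pooled list, those with 1 to 2 had 128, those with 3 to 5 had 80.04 and those with 6 to 10 had 39.7. The bases with over 10, only 0.0284 Mb, had 0 summits in the pooled list. In 100 kb bins along the whole of chromosome IV, the 34 bins with 0 piRNA genes held 17 to 54 pooled regions (median 28). The 73 bins with 1 to 9 genes held 2 to 48 (median 25), and the 16 bins with 10 to 99 held 8 to 26 (median 19.5). The 17 bins with 100 to 199 held 8 to 42 (median 19), and the 15 bins with 200 to 299 held 4 to 37 (median 10). The 19 bins with 300 or more held 2 to 24 (median 8). The ranges of neighbouring classes overlap. The share of these regions in the reproducible list was 3.13% in the bins with 0 piRNA genes, 2.06% with 1 to 9, 3.08% with 10 to 99, 3.77% with 100 to 199, 2.34% with 200 to 299 and 1.59% (3 of 189) with 300 or more.

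**Figure D4:**
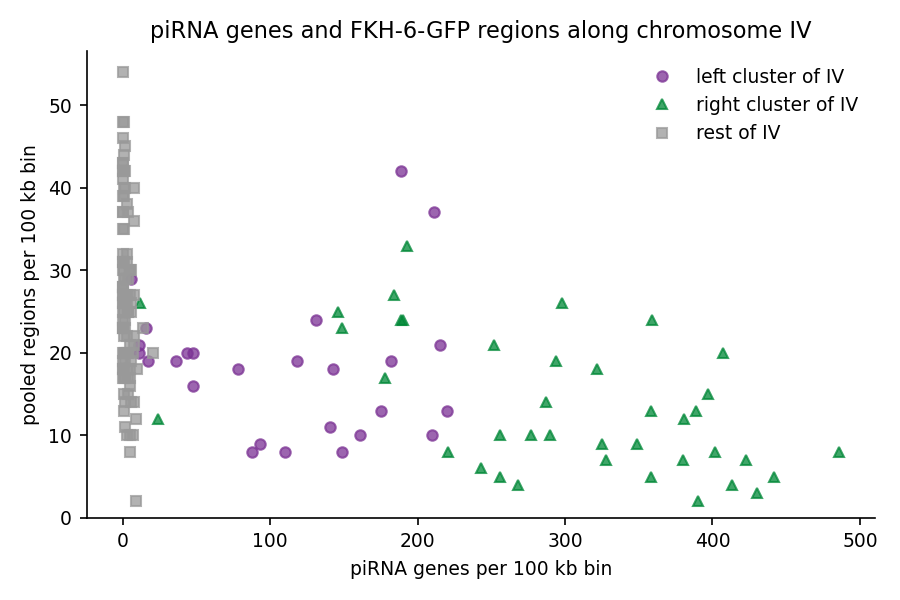
Pooled FKH-6-GFP regions (y axis) against piRNA genes (x axis) in the 174 whole 100 kb bins of chromosome IV, marked by cluster; each point is a bin. Bins with 0 piRNA genes hold 17 to 54 regions, and bins with 300 or more hold 2 to 24.

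Base composition moved with this pattern. In windows of 101 bases, the mean GC content was 30.7% over the cluster bases near piRNA 5' ends and 36.1% over those away from them. The summits themselves were at higher GC content, 38.2% for the regions at piRNA genes in the clusters and 43.1% for the other cluster regions. Summits were more frequent at higher GC content on both sides: at 45% GC and over, there were 482 per Mb near piRNA 5' ends and 614 away, and under 25% GC 34.7 near and 68.8 away. In the class from 40 to 45% the densities were 212 near and 214 away, with 156 near and 178 away in replicate 1 and 268 near and 251 away in replicate 2. With the away density weighted to the GC content of the bases near piRNA genes, the ratio in the clusters was 0.624, and with weighting to GC content and place in a protein-coding gene together it was 0.646. In replicate 1 that last value was 0.757 and in replicate 2 it was 0.667. The part of base composition in the result was not tested beyond this weighting. Mean GC content was 28.1% at 0 to 100 bp from a piRNA 5' end and 36.2% beyond 2000 bp. It was 36.1% with 0 piRNA 5' ends within 500 bp and 28.2% with 6 to 10. The densities by distance and by crowding were not weighted for it. Read mappability cannot be computed from region lists, and its part was not tested.

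About equal numbers of the regions in the clusters lay inside and outside protein-coding genes. Of the 335 in the clusters, 169 (50.4%) were intergenic, 86 (25.7%) in introns of protein-coding genes, 67 (20%) in coding exons and 13 (3.88%) in UTRs. Of the bases that met the same position rule, 57.1% were intergenic, 28.9% intronic, 11.8% in coding exons and 2.14% in UTRs. Density was lower near piRNA 5' ends in each of these places. In intergenic sequence it was 78.5 summits per Mb near and 163 away, in introns 78.8 and 211, in coding exons 149.9 and 295, and in UTRs 161 and 305.

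A protein-coding start lay within 500 bp of 97 of the 492 regions, or 19.7% (95% Wilson interval 16.4 to 23.5), beside 23.9% of all nuclear regions. Their median signal was 33.2, against 33.1 for the 395 without such a start, and 1 of the 97 was in the reproducible list, the region upstream of ndc-80. The share with a nearby coding start was 13.4% in the clusters and 36.04% on chromosomes other than IV.

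The core motif of piRNA promoters was less common near these summits than near the bases that met the same position rule. CTGTTTCA, searched on both strands, lay within 150 bp of 54 of the 335 summits at piRNA genes in the clusters, a share of 16.1% with a Wilson interval of 12.6 to 20.4. Of the cluster bases that met the same position rule, 31.8% had it as near. Over all 492 regions the share was 11.8% (9.23 to 14.9), against 26.97% of the bases under the rule and 2.98% of all nuclear bases. Over all nuclear regions it was 1.83%, so the share at summits was below the share of bases in the whole list too. The cluster summits and bases also differed in distance to a piRNA 5' end. Within 100 bp of one lay 24.2% of the 335 summits, and 1.82 Mb of the 3.77 Mb of bases under the rule. The motif shares were not adjusted for distance or GC content. In the right cluster, 5.74% of the piRNA genes with the motif in the 60 bases upstream had a region within 500 bp, and 4.59% of those without it. The order was the other way in the left cluster, at 9.86% with the motif and 10.7% without. It was also the other way on the rest of IV, at 8.96% (6 of 67 genes) and 13.7% (32 of 233). On other chromosomes the shares were 2.27% (1 of 44) and 16.4% (99 of 605). These counts with the motif outside the clusters are small. Over all nuclear piRNA genes the shares were 6.66% with the motif and 6.53% without.

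The forkhead motif GTAAACA, whose reverse complement shares the letters TGTTT with CTGTTTCA, was as near to 19 of the 492 summits, a share of 3.86% (2.49 to 5.95). It was as near to 4.24% of the bases under the rule and to 3.24% of all nuclear summits. GAGAGA was within 150 bp of 126, or 25.6% (22.0 to 29.6), against 11.1% of the bases under the rule. Over all nuclear regions the share was 25.3%, where 14.5% of all nuclear bases had it. A match is a run of letters and says nothing of a bound protein.

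Summits lay on both sides of the piRNA genes. Of the 492, 232 (47.2%, 95% Wilson interval 42.8 to 51.6) lay upstream of the nearest 5' end. In the 60 bases just upstream, where the core motif is found, lay 30 (6.10%, 4.30 to 8.57). Inside the piRNA gene itself lay 17 (3.46%). The share of bases in these positions was not counted, so no excess or lack of summits there can be read. The median distance was 219.5 bp.

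The 6 summits at 0 or 1 bp from a piRNA 5' end had signals below the middle of the list. At 21ur-14807 the summit was on the first base, in a coding exon of cht-3, a chitinase gene. Its pooled signal was 33.7, at percentile 45.3 of the nuclear regions, and it was in replicate 2 (20.3) and not in replicate 1. The other 5 summits were 1 bp away. Those at 21ur-11407 (signal 34.6, percentile 48.7) and 21ur-13973 (33.7, percentile 45.5) were in coding exons, and those at 21ur-3214 (31.7, percentile 37.3), 21ur-14680 (29.4, percentile 26.6) and 21ur-15638 (27.0, percentile 13.3) were in introns. Only the region at 21ur-11407 was in both replicates, with 23.2 in replicate 1 and 15.6 in replicate 2, and the region at 21ur-13973 was in neither. The gene 21ur-14807, IV:7006903-7006983 on the minus strand with the 60 bases upstream, carries the core motif and is shown with the same capitals as above.
21ur-14807: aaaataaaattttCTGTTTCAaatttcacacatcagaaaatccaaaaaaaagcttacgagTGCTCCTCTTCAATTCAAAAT

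The next regions by signal were not in the reproducible list. In the right cluster, the region at 21ur-8046, in a coding exon of M199.136, had a pooled signal of 88.1 and was found in replicate 2 (61.1) and not in replicate 1. The region at 21ur-5281 had 87.9, with 30.9 in replicate 1 and 53.5 in replicate 2. The region at 21ur-6255, whose nearest protein-coding start was that of clc-8, 2215 bp away, had 81.7 and was found in replicate 1 (50.4) and not in replicate 2. All 3 reached a −log10 q-value of 2.

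In the left cluster the next 4 regions by signal were as follows. The region at 21ur-3556 had a pooled signal of 73.8, with 39.6 in replicate 1 and 31.3 in replicate 2, and its summit was 66 bp from the 5' end, 4744 bp upstream of unc-44. The region at 21ur-8555, in a coding exon of the same gene, which encodes an ankyrin needed for axon guidance, had 69.8, with 25.7 in replicate 1 and 46.9 in replicate 2. The region at 21ur-15285 was in an intron of unc-5, a netrin receptor gene, with 71.5 pooled, 23.1 in replicate 1 and 43.5 in replicate 2. The region at 21ur-6607 was in an intron of the nuclear hormone receptor gene nhr-46, with 69.5 pooled, 29.8 in replicate 1 and 39.3 in replicate 2. All were found in both replicates, at ranks from 1028 to 7199 in replicate 1 and from 1057 to 4076 in replicate 2.

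Outside the clusters, the highest signals after 21ur-14295 were upstream of protein-coding genes in 3 of 4 cases. The region at 21ur-13751 on chromosome II, 427 bp upstream of vig-1, had a pooled signal of 76.1, with 24.8 in replicate 1 and 50.05 in replicate 2. The region at 21ur-14519 on X, 317 bp upstream of the innexin gene inx-3, had 75.7 and was found in replicate 1 (37.4) and not in replicate 2. The region at 21ur-12807 on II, 385 bp upstream of the kinase gene wee-1.3, had 66.4, with 28.7 in replicate 1 and 36.5 in replicate 2. The region at 21ur-8796 on IV, 5531 bp from the nearest protein-coding start, had 65.9, with 32.7 in replicate 1 and 27.3 in replicate 2. None of these 4 was in the reproducible list.

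At the edge of the distance rule, the 33 regions with summits over 450 and up to 500 bp from a piRNA 5' end had a median signal of 32.9 and 0 in the reproducible list. The 41 regions from 501 to 550 bp, outside the rule, had a median of 36.9 and 1 in that list.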

How the data were processed

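FKH-6-GFP ChIP-seq regions came from 2 replicates of late embryos. The authors deposited lists per replicate, for both replicates pooled and after the reproducibility threshold, per the deposited descriptions. The 4 ce11 lists were used, and the ce10 lists were not, since builds were not mixed. The signal in column 7 is the authors' deposited score, whose scale is not stated, and column 9 is the authors' deposited −log10 q-value. No label or header names the peak caller or the aligner. The pooled list holds peaks and background, so most of its 26164 regions are weak. Replicate 1 had 19624 regions and replicate 2 had 26209. The lists hold no read counts, so depth is unknown. There were 0 columns of other samples.

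Genes were from Ensembl release 115 and sequence from RefSeq, both WBcel235. Summits matched between lists within 100 bp. Densities are summits over the bases that met the same position rule, counted exactly, and the interval of a ratio comes from the 95% Wilson interval of the share of summits near piRNA genes. GC content was taken in windows of 101 bases and motifs in windows of 301 bases. Python 3.11.15, NumPy 2.4.6, SciPy 1.17.1, pandas 2.3.3 and Matplotlib 3.10.9 were used, and the counting was tested on simulated data. The regions and motifs were chosen with earlier results of these data known. The density ratio and its alternatives were added after the data were seen. Regions were named by rule: all in the reproducible list, the 5 highest by signal in each cluster and outside them, and the 3 summits nearest to a piRNA 5' end with all ties, which made 6.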

Additional observations from a re-analysis of the deposited data

How the results depend on the processing

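Of the 492 regions, 275 stayed at 250 bp and 774 met the rule at 1000 bp, and a stricter list, cut at a −log10 q-value of 2, left 7. The share in the clusters was 74.5% at 250 bp, 55.9% at 1000 bp, 73.4% with coding starts also excluded and 85.7% in the stricter list. The share in the reproducible list was 0% at 250 bp (0 of 275), 2.14% with other small RNA genes not excluded and 57.1% of the 7 in the stricter list. Of all nuclear regions, 1077 reached the stricter cut and 746 were in the reproducible list, and the overlap of these 2 sets was not counted. The stricter list keeps regions of strong support, so its shares are no check on the full list. The median signal there was at percentile 97.2, above 50, where the full list gave 43.3. The q-value rises with the signal and 4.12% of all nuclear regions reached the cut, so a high percentile follows from the cut itself. The share found in both replicates was 16.5% with summits within 50 bp, 32.1% within 200 bp and 71.4% in the stricter list. The share with CTGTTTCA was 18.9% at 250 bp, 8.53% at 1000 bp, 4.47% in a 50 bp window and 0% in the stricter list. The density ratio of 0.404 in the clusters was below 1 under all 11 alternatives. These draw on the same 2 libraries and are not independent of each other. The ratio was 0.221 in the stricter list, from only 6 regions near piRNA genes and 18 away. It was 0.432 to 0.480 with each replicate's list alone and 0.421 outside coding exons. The largest shifts toward 1 came from weighting the away density, to GC content (0.624) and to place and GC content together (0.646). No intervals were computed for the weighted ratios. With each replicate's list alone, the number of regions was 442 to 533, the share in the clusters 66.04 to 70.1%, the share in the reproducible list 0.905 to 0.938%, the median percentile 39.2 to 41.1 and the share with CTGTTTCA 13.9 to 16.1%. The causes of these shifts were not tested. No paired analysis was possible because there is 1 group and no test between groups. Both replicates come from the same strain, and the unknown depth limits what the absence of a region shows.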
